A study of Mus musculus with 4 samples.

Results

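Aminoacyl-tRNA synthetases are the enzymes that load each amino acid onto its tRNA, and their genes were followed here in myeloid-derived suppressor cells (MDSCs) treated with EGCG, a catechin abundant in green tea. The members were the genes whose names are on a list of cytosolic and mitochondrial synthetases, and all 36 were found among the 53465 genes counted: 20 encode cytosolic and 16 mitochondrial enzymes. MDSCs had been sorted with Gr-1 beads from the spleens of male BALB/c mice bearing 4T1 breast tumors, which by the labels were killed on day 21 (the study's methods give an earlier time for cell sorting). The cells were then kept for 6 h in control medium (control group, 2 libraries) or in medium with 5 μg/mL EGCG (EGCG group, 2 libraries). Whether the replicate libraries stem from separate animals or cultures is not given in the sources used here, so that p values measure only the spread between these libraries, which may be technical. The Gr-1 antibody recognizes Ly-6G as well as Ly-6C, so both neutrophil-like and monocyte-like cells are taken by such a sort.

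Synthetases work in the cytosol and, as a separate set of nuclear-encoded enzymes, in mitochondria, where they serve the translation of the few proteins encoded by mitochondrial DNA. In the cytosol, several of them sit in a large multisynthetase complex held together by scaffold proteins, whereas the others are free. When an amino acid runs short, uncharged tRNA activates the kinase GCN2, and the transcription factor ATF4 then raises a set of genes that includes many cytosolic synthetases. Wars, the tryptophan enzyme, is in addition known as a gene induced by interferon-gamma.

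The 4 libraries held between 17767318 and 18390385 counts on genes, and S100a8, S100a9 and the other neutrophil and MDSC markers summed to between 59842 and 80168 CPM (read counts relative to library size, scaled between libraries by the TMM method). Of these markers, 8 of 11 were higher with EGCG by sign. Summed markers of other cells were far lower, and no marker of any list was at 0 in all libraries. B cell markers summed to 1753 and 1849 CPM in control and 1954 and 2008 CPM with EGCG. T cell markers summed to 98.1 and 109 CPM against 112 and 116 CPM, and plasma cell markers to 209 and 229 CPM against 269 and 238 CPM. These sums were higher without overlap, as were 21.5% of all tested genes taken singly. By sign, 5 of 6 B cell, 4 of 6 T cell and 3 of 4 tested plasma cell markers were higher. Erythroid markers ranged from 154 to 206 CPM. Macrophage markers summed to 724 and 715 CPM in control and 563 and 646 CPM with EGCG, with 8 of 8 markers lower and a median log2 fold change of -0.25. The endothelial markers summed to 118 and 129 CPM against 96.8 and 101 CPM, with 4 of 4 tested markers lower and a median of -0.66. By edgeR, 4 of 8 macrophage and 4 of 4 endothelial markers had an unadjusted p under 0.05, beside 12.2% of all tested genes. In both lists 0 had an adjusted p under 0.05. Markers of cycling cells summed to 612 and 611 CPM against 528 and 512 CPM. Of these 7 markers, 4 were lower and 3 higher, with a median log2 fold change of -0.03. Among them 1, Mki67, was called at an adjusted p under 0.05 by edgeR, beside 0.150% of all tested genes. Monocyte markers summed to 1016 and 979 CPM against 930 and 929 CPM, with 5 of 6 lower and a median of -0.12. The part of these cells in the values of the synthetase genes was not tested, and in bulk samples fewer cells of a type and less RNA per cell cannot be told apart.

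None of the 36 synthetase genes differed between the EGCG and the control group at the threshold. By the quasi-likelihood test of edgeR, adjusted by Benjamini-Hochberg over 14682 tested genes, 0 of 36 members had an adjusted p under 0.05 (0 also by DESeq2), against 22 or 0.150% of all tested genes, and the smallest adjusted p among the members was 0.235. At an unadjusted p under 0.05 there was 1 member, Lars2, which is 2.78% of the members, against 12.2% of all tested genes (5.22% higher and 7.02% lower). By DESeq2 it was 1 member as well, beside 6.28% of all genes in that test. DESeq2 gave no adjusted p for some members, among them Farsb, Ears2, Mars2, Nars2, Pars2 and Yars2, so it could not call these. All 36 members passed the filter on low counts, with 23 to 2778 counts in a library. By sign, 20 members were lower and 16 were higher with EGCG, and 49.4% of all tested genes were lower. Their median log2 fold change was -0.01, beside 0.00 over all tested genes, and the values ran from -0.29 (Yars2) to 0.27 (Lars2).

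The size of the change that these data allow can be read from the 95% intervals of the fold changes. For 30 of 36 members the whole interval lay within a 1.5-fold change in either direction, and for all 36 it lay within a 2-fold change. Of all tested genes, 63.0% had an interval within 1.5-fold and 82.3% within 2-fold. The 6 members with wider intervals, namely Ears2, Fars2, Nars2, Pars2, Wars2 and Yars2, all encode mitochondrial enzymes and had 23 to 152 counts in a library. The median member differed by 0.11 (log2) between the control libraries, by 0.13 between the EGCG libraries and by 0.10 between the group means. Over all tested genes these values were 0.14, 0.14 and 0.13. Group means average 2 libraries, so their difference cannot be set directly against those between single libraries. The libraries of the 2 groups did not overlap for 13 members, 7 lower and 6 higher with EGCG, and this held for 42.7% of all tested genes, with 21.2% lower and 21.5% higher.

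**Figure D1:**
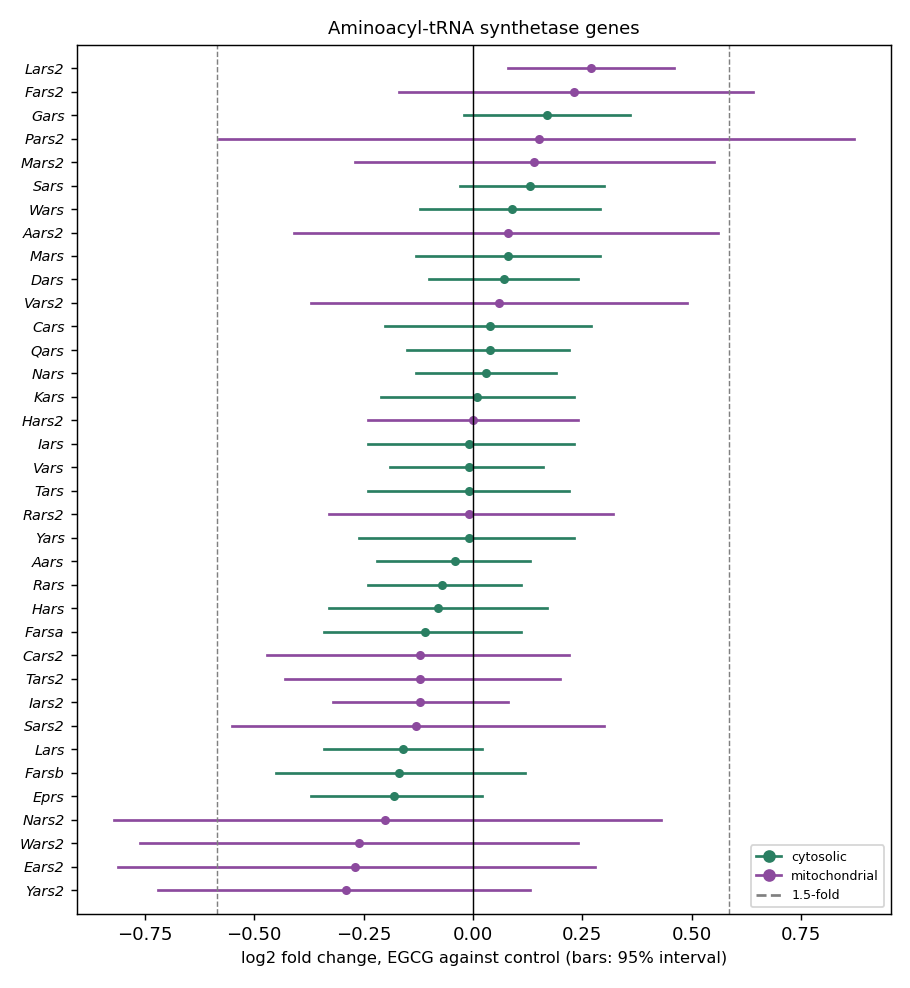
Log2 fold change of the 36 synthetase genes, EGCG against control (points), with 95% intervals from edgeR's quasi-likelihood fit (bars), cytosolic enzymes in green and mitochondrial enzymes in purple, and dashed lines at a 1.5-fold change. The interval excludes 0 for Lars2 only, and the widest intervals belong to mitochondrial enzymes.

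As a share of all counts, the 36 genes together took 0.126% and 0.119% in control and 0.117% and 0.124% with EGCG. The groups overlapped in this sum. The 20 cytosolic members summed to 1048 and 1034 CPM in control and 1010 and 1080 CPM with EGCG. The 16 mitochondrial members summed to 175 and 164 CPM against 173 and 174 CPM. To compare genes with each other, levels were divided by exon length (CPM per kilobase of the union of annotated exons, mean of the 4 libraries). On this scale the cytosolic genes had a median of 9.54 and the mitochondrial genes a median of 1.30, and 15 of the 16 highest levels were cytosolic. The length of the principal transcript, chosen after seeing the data, gave medians of 16.3 and 2.79 and again 15 of the 16 highest levels.

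**Figure D2:**
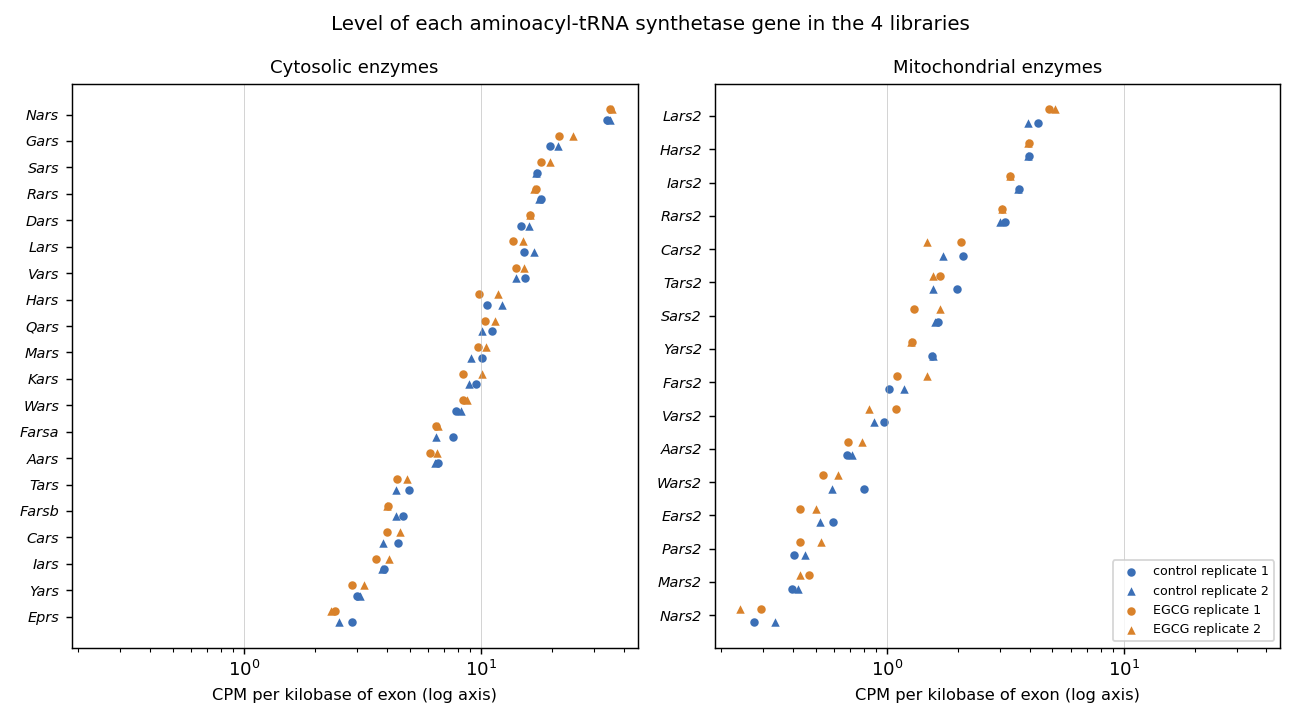
Level of each synthetase gene in each library, in CPM per kilobase of exon on a log axis, for cytosolic (left) and mitochondrial (right) enzymes, with control libraries in blue, EGCG libraries in orange, circles for replicate 1 and triangles for replicate 2. On union exon length Nars is the highest at 35.1 on average and Nars2 the lowest at 0.287, and for most genes the points of both groups lie together.

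The highest level per length belonged to Nars (ENSMUSG00000024587, chromosome 18 of GRCm38, from 64499647 to 64516652), which charges asparagine tRNA. Nars was at 149 and 153 CPM in control and at 153 and 156 CPM with EGCG, and its log2 fold change was 0.03 (standard error 0.07). Gars, the glycine enzyme, and Sars, the serine enzyme, followed at 21.7 and 18.0 CPM per kilobase of union exons. With principal transcripts Nars was again the highest, at 55.6, and Dars (31.5) and Gars (28.4) followed. Gars (ENSMUSG00000029777, chromosome 6, from 55038007 to 55079500) supplies both the cytosol and mitochondria from the same gene. Its values were 61.3 and 66.0 CPM in control and 66.6 and 76.2 CPM with EGCG, so that EGCG replicate 2 stood above the other 3 libraries. The log2 fold change of Gars was 0.17 (standard error 0.09, adjusted p of 0.486 by edgeR's quasi-likelihood test, range over the alternatives 0.329 to 0.946), and without EGCG replicate 2 it was 0.07. Sars (ENSMUSG00000068739, chromosome 3, from 108424865 to 108445209) was at 88.8 and 87.6 CPM in control and at 92.7 and 101 CPM with EGCG, with a log2 fold change of 0.13 and a standard error of 0.08, and of 0.07 without EGCG replicate 2. At the low end, Nars2, Mars2 and Pars2, the mitochondrial enzymes for asparagine, methionine and proline, had 0.287, 0.430 and 0.453 CPM per kilobase of union exons. With principal transcripts they were again the 3 lowest, at 0.529, 0.430 and 0.640, so that Mars2 was the lowest.

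Of the 8 enzymes of the multisynthetase complex, 4 were lower and 4 higher by sign, with a median log2 fold change of 0.00. At an unadjusted p under 0.05 there were 0 of these 8, beside 12.2% of all tested genes. Eprs (ENSMUSG00000026615, chromosome 1, from 185363044 to 185428360), a bifunctional enzyme that charges both glutamate and proline tRNA, had the lowest fold change among the cytosolic genes. Its level was 51.5 and 45.8 CPM in control and 43.8 and 42.2 CPM with EGCG, both EGCG libraries being below both controls. The log2 fold change of Eprs was -0.18 (standard error 0.09, adjusted p of 0.466 by edgeR's quasi-likelihood test, range over the alternatives 0.250 to 0.987), and with a correction for gene length its sign turned, to 0.01. Without control replicate 1 the value was -0.09. Lars (ENSMUSG00000024493, chromosome 18, from 42202298 to 42262194), which charges leucine tRNA and is also known as a leucine sensor upstream of mTORC1, was at 81.5 and 89.6 CPM in control and at 73.2 and 80.4 CPM with EGCG. The groups of Lars were separated by little, and its log2 fold change was -0.16 (standard error 0.08, adjusted p of 0.491 by the same edgeR test). Leaving out control replicate 2 gave -0.08 for Lars, and leaving out EGCG replicate 1 gave -0.09.

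Kars, the lysine enzyme, which like Gars serves both compartments, had 42.4 and 39.8 CPM in control and 37.5 and 45.2 CPM with EGCG, the EGCG libraries lying on either side of the controls. Its log2 fold change was 0.01, and its sign was not stable, at -0.03 when scaled by library size and between -0.13 and 0.14 with a library left out. Mars, the methionine enzyme that also charges the initiator tRNA, was at 34.6 and 31 CPM against 33.3 and 35.9 CPM, with a log2 fold change of 0.08 and a standard error of 0.10, which ran from 0.0039 without control replicate 2 to 0.16 without control replicate 1. The end of Mars overlaps Ddit3 on the other strand by 68 exonic bases. Dars, the aspartate enzyme, had 64.4 and 69.4 CPM against 70.1 and 70.2 CPM, and its log2 fold change was 0.07 (standard error 0.08), or 0.02 without control replicate 1 and 0.13 without control replicate 2. Rars, Iars and Qars, the arginine, isoleucine and glutamine enzymes, complete the complex. The groups did not overlap for Rars, at 57.7 and 56.8 CPM in control and 55.2 and 54.0 CPM with EGCG, and overlapped for Iars and Qars.

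Among the 12 free cytosolic enzymes, 7 were lower and 5 higher by sign, with log2 fold changes from -0.17 (Farsb) to 0.17 (Gars) and a median of -0.01. Wars (ENSMUSG00000021266, chromosome 12, from 108860030 to 108894174), the tryptophan enzyme, was at 27.2 and 28.3 CPM in control and at 28.8 and 30.0 CPM with EGCG. Both EGCG libraries were above both controls, as for 21.5% of all tested genes, but all 4 values lie close together. The log2 fold change of Wars was 0.09 with a 95% interval from -0.12 to 0.29. Farsb, which encodes the beta subunit of the phenylalanine enzyme, had 12.3 and 11.5 CPM in control and 10.6 and 10.5 CPM with EGCG. Its log2 fold change was -0.17 (standard error 0.13), and 9.47% of its exonic bases overlap Sgpp2 on the other strand. The partner subunit gene, Farsa, was at 34.8 and 29.4 CPM against 29.5 and 29.9 CPM, and its groups overlapped.

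Of the 16 mitochondrial enzymes, 9 were lower and 7 higher by sign, with a median log2 fold change of -0.06. Lars2 (ENSMUSG00000035202, chromosome 9, from 123366927 to 123462666), the mitochondrial leucine enzyme, was the highest of them per length. It was measured at 48 and 43.8 CPM in control and at 53.8 and 57.1 CPM with EGCG, from 782 to 1019 counts. Both EGCG libraries were above both controls, and the means were 45.9 ± 2.98 CPM (SD, n = 2) in control and 55.4 ± 2.28 CPM (SD, n = 2) with EGCG, a difference that did not pass the threshold. The log2 fold change of Lars2 was 0.27 (standard error 0.09), with a 95% interval from 0.08 to 0.46. Its unadjusted p was 0.00794 and its adjusted p 0.235 by the quasi-likelihood test of edgeR (Benjamini-Hochberg), and over the alternatives the adjusted p ran from 0.117 to 0.678. The value was positive under all 13 alternatives, from 0.21 without control replicate 2 to 0.40 with the length correction. Its unadjusted p was not under 0.05 without control replicate 2 or without EGCG replicate 2.

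Yars2 (ENSMUSG00000022792, chromosome 16, from 16302965 to 16309640), the mitochondrial tyrosine enzyme, had the lowest fold change of all members. It was at 4.87 and 4.92 CPM in control and at 4.03 and 3.98 CPM with EGCG, with close replicates and no overlap between the groups. These levels rest on 71 to 89 counts in a library, and the log2 fold change of -0.29 had a standard error of 0.20 (adjusted p of 0.597 by edgeR's quasi-likelihood test, range over the alternatives 0.487 to 0.946). Ears2, the mitochondrial glutamate enzyme, was at 3.07 and 2.69 CPM against 2.21 and 2.58 CPM, with a log2 fold change of -0.27 and a standard error of 0.25. Without control replicate 1, and likewise without EGCG replicate 1, it was -0.16. Mars2 was at 4.49 and 4.76 CPM against 5.29 and 4.87 CPM, with a log2 fold change of 0.14 and a standard error of 0.19, which was 0.08 without EGCG replicate 1 and 0.27 with the length correction. Neither Ears2 nor Mars2 passed the threshold.

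Nars2 had 1.92 and 2.35 CPM in control and 2.04 and 1.68 CPM with EGCG, and Pars2 had 1.26 and 1.40 CPM against 1.32 and 1.62 CPM. The groups of both genes overlapped, and the log2 fold change of Nars2, -0.20, was -0.34 when EGCG replicate 1 was left out and -0.04 when control replicate 2 was. Iars2 was at 32.0 and 31.8 CPM against 29.4 and 29.4 CPM with no overlap, but 24.2% of its exonic bases are shared with genes on the other strand. Such overlaps make counts uncertain where the counting ignored strand, and the next largest among members were 15.1% for Aars (mostly with Exosc6 on the same strand), 10.7% for Fars2, 9.47% for Farsb and 8.52% for Vars2. Hars and Hars2 lie head to head on chromosome 18 and share 195 exonic bases. Hars2 was nonetheless among the steadiest members, at 17.0, 16.9, 17.0 and 16.9 CPM in the 4 libraries. Of the 31-base words in the transcripts of Iars, 14.7% also occur in transcripts of other genes.

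For 13 amino acids the list holds a cytosolic and a mitochondrial enzyme under paired names, and their ratio within a library needs no scaling between libraries. The cytosolic gene had the higher level per exon length in all 4 libraries for 13 of 13 pairs, by a median of 5.77-fold in the control libraries. The distance ran from 1.08-fold for Iars over Iars2 to 114-fold for Nars over Nars2. With the length of the principal transcript the cytosolic gene was higher in 12 of 13 pairs, and Iars was at 0.790 of Iars2. The log2 ratio of Lars2 to Lars was -1.81 and -2.08 without EGCG and -1.49 and -1.54 with it. This is a difference of 0.43 between the group means, with an SD of 0.19 in control and 0.04 with EGCG, and it was the largest among the 13 pairs. The ratio was higher with EGCG without overlap for 3 pairs (leucine, alanine and arginine), lower without overlap for 3 (isoleucine, serine and tyrosine) and overlapping for 7. Among single genes, 42.7% of all those tested did not overlap. With 2 libraries against 2 an exact permutation test cannot give a two-sided p below 0.333. No model-based test of these ratios was run.

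**Figure D3:**
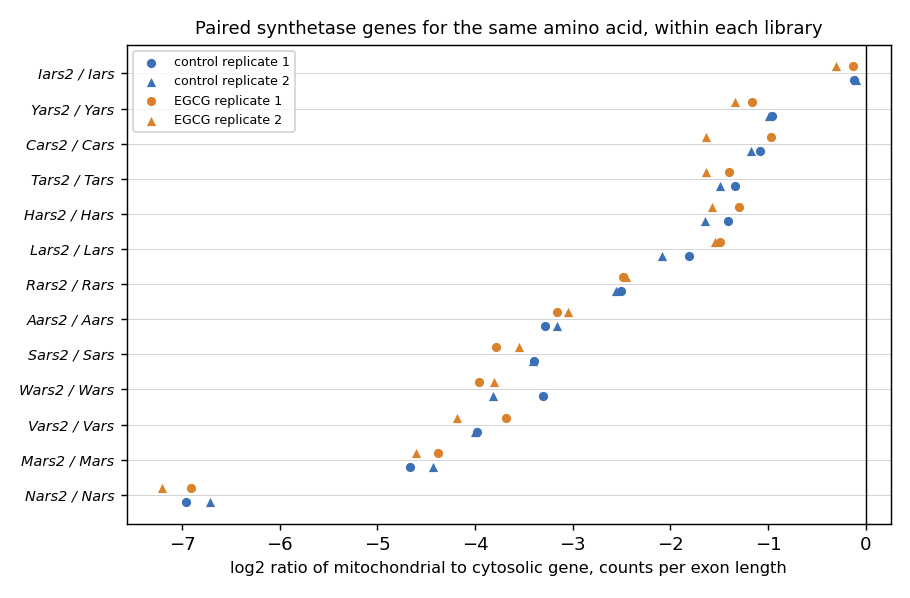
Log2 ratio of the mitochondrial to the cytosolic synthetase gene for the same amino acid, from counts per exon length within each library, with control libraries in blue, EGCG libraries in orange, circles for replicate 1 and triangles for replicate 2. All points lie below 0, and the leucine pair shows the widest gap between the group means, 0.43.

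Of the 20 cytosolic genes, 12 are known as targets of the ATF4 response, and the sequence that this response acts on was looked up in their promoters. The composite C/EBP-ATF response element was searched as TGATGNAA on both strands of RefSeq promoter windows (GRCm38.p6, 250 bases before to 50 bases after a start). Windows were matched for 27 of the 36 members; those of Cars, Hars, Lars, Nars, Rars, Vars, Wars, Hars2 and Pars2 were not matched. The letters occurred in 5 of the 8 matched ATF4-responsive genes (Aars, Gars, Iars, Tars and Yars) and in 0 of the 19 other matched members, beside 4.51% of 27025 genes. The matches in 4 of these (Gars, Iars, Tars and Yars) are shown since the element is the sequence known to link ATF4 to its targets. Each line gives 30 bases of the strand of the gene, 5′ to 3′, with the matching letters in capitals; in all but Yars the match is on the other strand.
Gars: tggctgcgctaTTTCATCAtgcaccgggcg
Iars: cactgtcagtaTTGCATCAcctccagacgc
Tars: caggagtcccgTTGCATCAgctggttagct
Yars: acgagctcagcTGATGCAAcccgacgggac
The windows lie at chr6:55037960-55037989 (Gars, plus strand), chr13:49682126-49682155 (Iars, plus), chr15:11399655-11399684 (Tars, minus) and chr4:129189895-129189924 (Yars, plus). A match of letters is a description and not a site shown to be bound.

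Of the genes with the element, 0 of 5 passed the adjusted threshold, beside 0.150% of all tested genes. At an unadjusted p under 0.05 it was also 0 of 5, beside 12.2% of all tested genes. Aars was at 61.2 and 59.5 CPM in control and at 56.6 and 60.5 CPM with EGCG, and Tars was at 29.5 and 25.8 CPM against 26.1 and 28.7 CPM. Iars had 20.6 and 20.1 CPM against 19.1 and 21.5 CPM, and Yars had 17.9 and 18.4 CPM against 16.9 and 19.0 CPM. In these 4 genes the EGCG libraries overlapped the control libraries, and only Gars, described above, had both EGCG libraries higher. Of all tested genes, 42.7% did not overlap, and 21.5% were higher without overlap. All 12 ATF4-responsive synthetase genes together had 6 values below and 6 above 0, with a median log2 fold change of 0.01. The other 8 cytosolic genes had a median of -0.04.

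The wider amino acid response was represented by 25 genes, namely the sensor GCN2 and its activator, ATF4 with related factors, amino acid transporters and enzymes of amino acid synthesis. Of the 24 tested genes, 0 had an adjusted p under 0.05 by edgeR's quasi-likelihood test, and 9 (37.5%) had an unadjusted p under 0.05, beside 12.2% of all tested genes. Of these 9, 5 were higher and 4 lower with EGCG, and the median of the list was 0.02. By DESeq2, 5 genes had an unadjusted p under 0.05, beside 6.28% of all genes in that test, and with the length correction it was also 5, beside 10.5%. With a library left out the number was 5 without control replicate 1 (beside 6.52% of all genes) and without EGCG replicate 2 (10.4%), and 6 without control replicate 2 (14.4%) and without EGCG replicate 1 (10.3%). Atf4 itself was at 179 and 188 CPM in control and at 173 and 186 CPM with EGCG. Its target Ddit3 had 33.0 and 37.0 CPM against 34.8 and 37.3 CPM, and both genes overlapped between the groups.

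Gcn1l1, the activator that brings GCN2 to stalled ribosomes, was at 148 and 132 CPM in control and at 114 and 113 CPM with EGCG. The EGCG libraries were below both controls, with a log2 fold change of -0.30 and a standard error of 0.08 (unadjusted p of 0.00187, adjusted p of 0.150 by edgeR's quasi-likelihood test). The adjusted p of Gcn1l1 ran from 0.0181 without control replicate 2 to 0.663 without control replicate 1, and the length correction moved the fold change to -0.12. Eif2ak4, which encodes GCN2, had 11 and 10.6 CPM against 8.33 and 8.45 CPM. Its log2 fold change was -0.36 (standard error 0.14, unadjusted p of 0.0247, adjusted p of 0.339 by edgeR), and it was -0.28 with the length correction. Sesn2, which encodes a leucine sensor, was at 109 and 112 CPM against 109 and 115 CPM, with a log2 fold change of 0.02. Eif2ak4, Sesn2, Trib3, Slc7a1 and Asns are named here after their values were seen.

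Among the transporters, Slc7a11, the cystine carrier, was at 224 and 217 CPM in control and at 178 and 187 CPM with EGCG. Its groups were well apart, with a log2 fold change of -0.27 and a standard error of 0.07 (adjusted p of 0.162 by edgeR's quasi-likelihood test, -0.12 with the length correction). Slc7a1, a carrier of arginine and lysine, was at 25.4 and 25.7 CPM against 21.0 and 22.4 CPM, with a log2 fold change of -0.23 and a standard error of 0.10, which was -0.10 with the length correction. The genes on the higher side were Mthfd2, a mitochondrial enzyme of folate metabolism, Eif4ebp1, an inhibitor of cap-dependent translation, the transcription factor gene Cebpb, Trib3, which encodes a pseudokinase that feeds back on ATF4, and Asns, the asparagine synthetase. Mthfd2 had 25.2 and 24.4 CPM in control and 27.7 and 33.0 CPM with EGCG, a log2 fold change of 0.29 (standard error 0.11), which was 0.16 without EGCG replicate 2. Trib3 had 5.31 and 5.48 CPM against 7.50 and 6.77 CPM, a log2 fold change of 0.40 (standard error 0.17).

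The values of Asns were 43.2 and 48.2 CPM in control and 48.1 and 59.2 CPM with EGCG. Its groups overlapped, and the log2 fold change of 0.23 was 0.07 without EGCG replicate 2. Eif4ebp1 and Cebpb had log2 fold changes of 0.24 and 0.22, each with a standard error of 0.08, and that of Cebpb was 0.10 without EGCG replicate 2. The response element letters occurred in the promoter windows of Trib3 and Asns and also in that of Slc7a11, whose values differ in sign. In the other holders on the list, Chac1, Nupr1 and Pycr1, the unadjusted p was above 0.05.

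**Figure D4:**
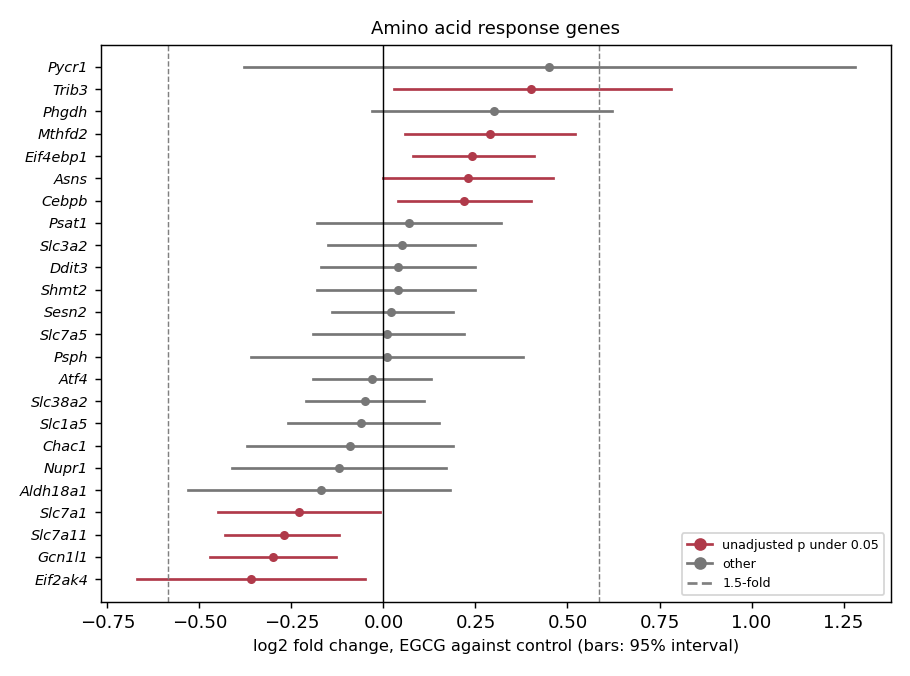
Log2 fold change of the 24 tested amino acid response genes, EGCG against control (points), with 95% intervals (bars), in red where the unadjusted p of edgeR's quasi-likelihood test is under 0.05, and dashed lines at a 1.5-fold change. The red genes fall on both sides of 0, from -0.36 (Eif2ak4) to 0.40 (Trib3).

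The scaffold genes of the multisynthetase complex, Aimp1, Aimp2 and Eef1e1, all had values above 0. At an unadjusted p under 0.05 there were 0 of these 3, beside 12.2% of all tested genes. Aimp1, which holds the arginine and glutamine enzymes in the complex, was at 27.7 and 32.9 CPM in control and at 35.4 and 34.4 CPM with EGCG, with no overlap and a log2 fold change of 0.20 (standard error 0.10). Of 16 tested genes for other steps of tRNA charging, editing and delivery, 1 (6.25%, beside 12.2% of all tested genes) reached an unadjusted p under 0.05, and none passed the adjusted threshold by edgeR. With library size only and by DESeq2 it was 0. That gene was Prorsd1, which is related to the domain that clears mischarged proline tRNA, at 23.4 and 23.4 CPM in control and 28.9 and 26.7 CPM with EGCG. Its log2 fold change was 0.25 (standard error 0.10, adjusted p of 0.354 by edgeR's quasi-likelihood test).

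Since Wars is inducible by interferon-gamma, 14 tested genes of that response were set beside it. Their median log2 fold change was -0.12 with 11 of 14 lower by sign, beside 49.4% of all tested genes. By edgeR's quasi-likelihood test, 0 had an adjusted p below the threshold. An unadjusted p under 0.05 was reached by 1 (7.14%, beside 12.2% of all tested genes). That gene, Irgm1, an immunity-related GTPase, was at 51.4 and 72.2 CPM in control and at 46.3 and 53.5 CPM with EGCG, and the groups overlapped. For 14 of 14 genes the groups overlapped, while 42.7% of all tested genes did not overlap. The list differed more between the control libraries (median 0.35, log2) than between the EGCG libraries (0.11). Without control replicate 1, 8 of the list had an unadjusted p under 0.05, beside 6.52% of all genes in that fit, and the log2 fold change of Irgm1 went from -0.31 to -0.53 (adjusted p of 0.00481 by edgeR). It was -0.41 without EGCG replicate 2 (adjusted p of 0.0452 by edgeR) and -0.04 without control replicate 2. Wars did not share this spread, with control values 27.2 and 28.3 CPM.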

How the data were processed

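The RNA-seq reads of 4 libraries were, per the labels and the study's methods, aligned by the authors with STAR 2.6.0c to GRCm38 and counted per gene with featureCounts 1.6.2 on Ensembl release 91, without strand. The deposited values are whole-number counts, not normalized, with 0 columns of other samples. From these, genes were filtered with filterByExpr (minimum count of 10), scaled by TMM and tested with edgeR 4.0.16 (quasi-likelihood, legacy form, R 4.3.3) over 14682 genes, with Benjamini-Hochberg adjustment and a threshold of 0.05. Standard errors are the size of the log2 fold change divided by the root of F. The test was tried on simulated data, but the outcome is not reported here and nothing is drawn from it. Mean chi-square per gene between replicates was 6.89 in control and 6.69 with EGCG, and over the 36 members 3.03 and 2.90, where 1 is sampling noise. Counting error alone is smaller than this spread. Positions and exon lengths were taken from GENCODE M21, a later annotation on the same build, where 53360 of 53465 identifiers matched.

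The members and lists were chosen with earlier results of these data known. Named with full values were members with an unadjusted p under 0.05, up to 5 further members per direction without overlap, the 3 highest and 3 lowest per length, Wars, Eprs, Gars, Kars, Lars and Mars, and at most 5 genes per list with an unadjusted p under 0.05. Alternatives were other scalings, filters, tests (DESeq2 1.42.0), a length correction, a replicate block and leaving out each library; the principal transcript length was added after seeing the data. A gene of a companion list and a promoter sequence are not reported here.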

Additional observations from a re-analysis of the deposited data

How the results depend on the processing

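The count of 0 synthetase genes at an adjusted p under 0.05 was the same under all 13 alternatives, while the count over all genes went from 22 to 151 with library size only, 11 with upper-quartile scaling, 0 without a filter on low counts, 9 with at least 50 counts in every library, 63 with the robust fit, 68 with DESeq2, 3 with the length correction and 77 to 354 with a library left out. At an unadjusted p under 0.05 there were 3 synthetase genes with library size only (Eprs, Lars and Lars2, beside 12.8% of all genes), 2 with the length correction (Lars2 and Sars, beside 10.5%) and 1 to 4 with a library left out (beside 6.52% to 14.4%), 4 of them without EGCG replicate 1 (Cars2, Fars2, Gars and Lars2, beside 10.3%). Lars2 was not among them without control replicate 2 or without EGCG replicate 2. The members lower by sign numbered 13 to 24 with a library left out and 14 with the length correction. The median of the cytosolic genes ran from -0.08 to 0.06 with a library left out. For the mitochondrial genes it was -0.10 with library size only, -0.01 with at least 50 counts (33 members tested) and with the length correction, and -0.06 to 0.03 with a library left out. No member was at the floor of 3 counts, so leaving such genes out changes nothing. Some members, among them Farsb, Ears2, Mars2, Nars2, Pars2 and Yars2, had no adjusted p by DESeq2. The count of 0 in that setting covers only the others, and the range of adjusted p for Yars2 leaves DESeq2 out. Signs turned for Eprs (0.01 with the length correction), Kars (-0.03 with library size only, -0.13 to 0.14 with a library left out), Nars (-0.01 with library size only) and Pars2 (-0.0044 to 0.29 with a library left out), and held for the other 12 of 16 named members.

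Over all genes, an unadjusted p under 0.05 was reached by 12.8% with library size only, 6.53% without a filter, 12.3% with the robust fit, 6.28% with DESeq2, 10.5% with the length correction, 12.6% with the block and 6.52% to 14.4% with a library left out. Beside these shares, the scaffold had 1 gene with the length correction and 0 to 1 with a library left out. The other charging genes had 0 with library size only and with DESeq2, and 0 to 3 with a library left out. The amino acid response had 5 with DESeq2 and with the length correction and 5 to 6 with a library left out. The interferon-gamma genes had 3 with library size only, 0 without a filter, with the robust fit and with DESeq2, and 0 to 8 with a library left out. The labels do not say whether replicate numbers pair the libraries. Deviations from the group mean in control replicate 1 and EGCG replicate 1 had a correlation of 0.0336 across 14682 genes. Such a correlation over all genes cannot show whether libraries of the same number were handled together. A replicate block gave 3 for the interferon-gamma genes, 30 called genes in all and 0 synthetase genes. With a library left out, the remaining library of a group is assumed to vary like the others. The causes of these shifts were not tested. The 6 members whose intervals were not within 1.5-fold had 23 to 152 counts in a library, and some mitochondrial genes with counts in this range, such as Mars2 (82 to 96), had intervals within 1.5-fold.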

Other observations

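Synthetases fall into 2 structural classes with unrelated catalytic folds. Of 19 genes of class I (Eprs counted here by its glutamate enzyme), 12 were lower by sign, with a median log2 fold change of -0.01, and of 17 genes of class II, 8 were lower, with a median of 0.00. The E-box letters CACGTG, the core bound by Myc and related factors, were found on the RefSeq promoter windows of 5 of 27 matched members (Aars, Iars, Tars, Farsb and Ears2), which is 18.5%, beside 8.09% of 27025 genes. Aars, Iars and Tars hold both these letters and the C/EBP-ATF response element.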
